A study of Arabidopsis thaliana with 18 samples.

Results

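The comparison set Arabidopsis thaliana seedlings treated with hydrogen peroxide (H2O2) directly against seedlings treated with benzyl adenine (BA), a synthetic cytokinin. It used 8 of the 18 arrays of the series, chosen by their titles: 4 with H2O2 and 4 with BA, each 4 made up of 2 arrays of the wild type (WT, Col-0) and 2 of a crf6 mutant. Seedlings were 10 days old, were floated for 1 h on 3 mM MES buffer, and then received 20 mM H2O2 or 2 µM BA for 6 h. Every solution, that of the controls included, held 0.2% DMSO. Neither treatment was the control of the other, so a difference between them is given as "higher with H2O2" or "higher with BA", and it does not say which treatment moved the gene. The 4 untreated WT and crf6 arrays were left out of the test, and their levels are printed beside it as a description. The labels do not say when the untreated seedlings were harvested, so they may not be matched in time to the treated ones. Per the series description the treatments served to find genes controlled by CRF6. No named feature was paired with CRF6, so the mutant was not checked on the targeted gene, and the labels give neither its allele nor whether the line CRF6oe, used below as a repeat of the comparison, is 1 clone. Whether both arrays of a group stem from different cultures is not in the labels either, so the p-values reflect the spread between these arrays alone, which may be technical.

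Cytokinins are perceived by histidine kinases at cell membranes, which pass a phosphate to type-B response regulators in the nucleus, and these switch on the type-A response regulators, which dampen the same signal. H2O2 is a reactive oxygen species that plant cells make under stress and also use as a signal. In plants it is known to induce heat shock proteins, glutathione-dependent detoxification and antioxidant enzymes. CRF6 belongs to the cytokinin response factors, a branch of the AP2/ERF transcription factors.

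On the 8 arrays, 1764 of 16548 genes (10.7%) differed between the treatments at an adjusted p under 0.05 (limma, Benjamini-Hochberg over all features paired with 1 gene), which is the meaning of "called" below. Of these, 854 (5.16%) were higher with H2O2 and 910 (5.5%) were higher with BA. That even split depends on the scale of the arrays. With each array centred on its median, which moved the median difference of all genes from 0.01 to 0.13 on the log2 scale, the counts were 1225 and 609. Of the called genes, 358 (2.16% of all genes) were at least 2-fold higher with H2O2 and 258 (1.56%) at least 2-fold higher with BA. Called or not, all 4 H2O2 arrays lay above all 4 BA arrays in 1283 genes (7.75%) and below them in 1414 (8.54%), together 2697 (16.3%). The count fell to 1071 without the second WT array with BA and to 1061 without the second crf6 array with BA.

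**Figure D1:**
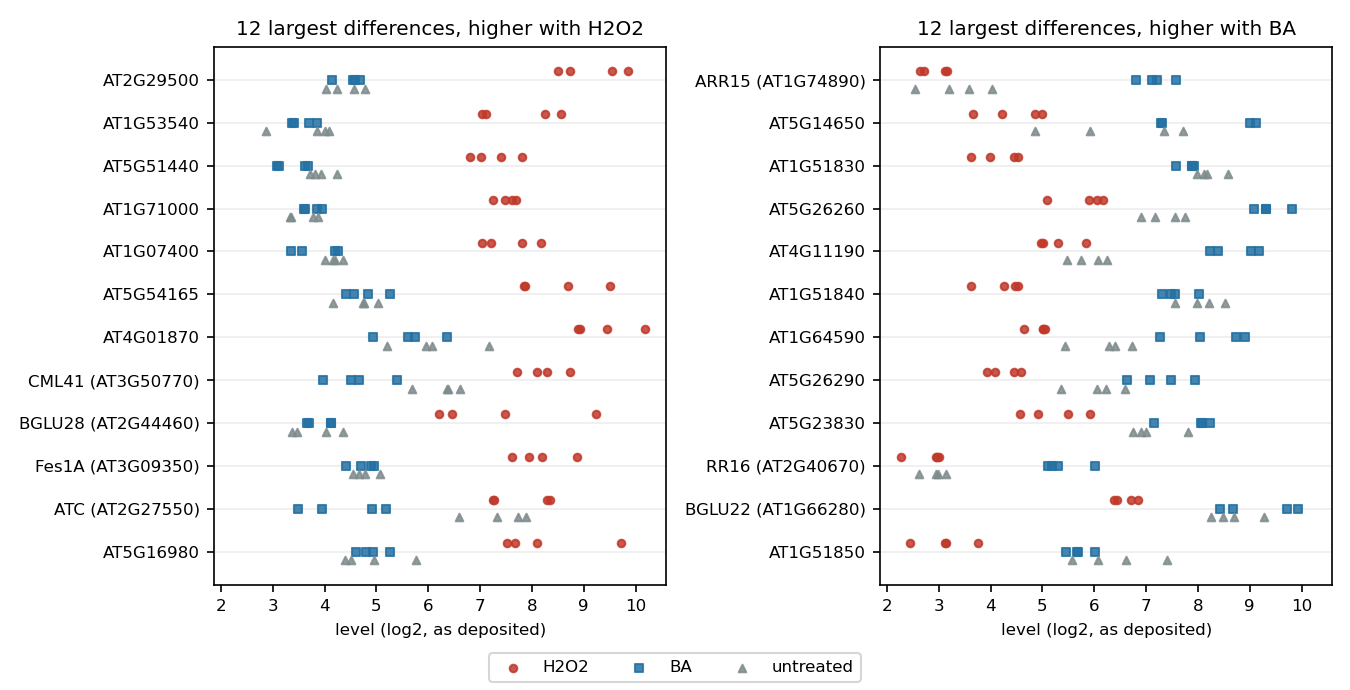
Levels of the 12 genes with the largest difference in each direction among called genes whose H2O2 and BA arrays do not overlap. The horizontal axis is the deposited log2 level, each point is 1 array, and each gene has 4 H2O2 (circles), 4 BA (squares) and 4 untreated (triangles) arrays of WT and crf6; untreated arrays overlapped the BA arrays for AT2G29500 and AT1G53540 and the H2O2 arrays for ARR15, RR16 and ATC.

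The cytokinin genes stood on the BA side. ARR15, a type-A response regulator, read 7.58 and 7.11 in WT and 7.21 and 6.81 in crf6 with BA, against 3.17 and 3.13 in WT and 2.64 and 2.71 in crf6 with H2O2, as log2 levels. All 4 BA arrays lay above all 4 H2O2 arrays, by 4.26 ± 0.14 on the log2 scale (SE; 19.2-fold, adjusted p = 1.27e-06, limma), the largest difference toward BA. The 4 untreated arrays, from 2.55 to 4.03, reached over the range of the H2O2 arrays.

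RR16, the other type-A response regulator with a named feature, read 5.19 and 5.11 in WT and 6.02 and 5.30 in crf6 with BA. With H2O2 it read 2.27 and 3.00 in WT and 2.95 and 2.97 in crf6. The 2 sets did not overlap, and the difference was 2.61 ± 0.19 on the log2 scale, higher with BA (6.1-fold, adjusted p = 6.2e-05, limma). UGT76C2, which conjugates cytokinin bases to glucose, was 4.44-fold higher with BA, with a level of 6.92 ± 0.14 (SD, n = 4) against 4.77 ± 0.39 with H2O2 (adjusted p = 0.000111, limma). Its neighbour UGT76C1, an enzyme of the same reaction, was not called, at 6.29 ± 0.14 with BA and 5.99 ± 0.35 with H2O2 (adjusted p = 0.355, limma). Of 10 listed type-A response regulators 2 were measured, of 19 listed cytokinin metabolism genes 2, and of 21 listed receptors and other signalling genes none, so the middle of the pathway was not analysed here.

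Heat shock genes held the largest differences on the H2O2 side. Small heat shock proteins are chaperones that hold unfolding proteins, and all 9 of the measured members of 15 listed were called higher with H2O2, against a background of 5.16% of all genes. Their median difference was 2.58 on the log2 scale, over a range from 0.56 to 4.67, where the median of all genes was 0.01. The list was built from textbook knowledge of the loci, but with earlier results of these data known. Most of the loci are given by code only in the name tables. Cross-hybridisation between the features of related members was not checked.

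AT2G29500, a small heat shock protein gene, had the largest difference toward H2O2 of all genes. It read 9.85 and 9.55 in WT and 8.73 and 8.51 in crf6 with H2O2, and 4.68 and 4.15 in WT and 4.58 and 4.54 in crf6 with BA. The H2O2 arrays were all higher, by 4.67 ± 0.24 on the log2 scale (25.4-fold, adjusted p = 1e-05, limma), and both WT arrays were above both crf6 arrays within them. AT1G53540 followed at 4.15 ± 0.25, AT5G51440 at 3.88 ± 0.24 and AT1G07400 at 3.71 ± 0.29. At the other end of the group, ATHSP22.0 was higher by 0.56 ± 0.13, from a low level of 2.19 ± 0.06 with BA (SD, n = 4).

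The other heat shock genes on the list moved the same way. Of 17 listed 4 were measured, and all 4 were called higher with H2O2, against 5.16% of all genes. AT1G71000 read 7.69 and 7.62 in WT and 7.49 and 7.24 in crf6 with H2O2. With BA it read 3.60 and 3.63 in WT and 3.96 and 3.85 in crf6. The sets were far apart, by 3.75 ± 0.14 on the log2 scale (13.5-fold, adjusted p = 2.15e-06, limma). Fes1A, a partner of the HSP70 chaperones, was 10.7-fold higher with H2O2, and AT5G48570, which encodes the FK506-binding isomerase ROF2, was 7.24-fold higher. HSA32, needed for lasting heat tolerance, was 2.19-fold higher (adjusted p = 0.00439, limma). DREB2C, a transcription factor of the heat response, was also higher, at 6.89 ± 0.29 with H2O2 and 5.19 ± 0.22 with BA (SD, n = 4; adjusted p = 0.000233, limma). It was the 1 measured member of its list, and is named for that reason after its value was seen.

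Detoxification genes had members on both sides. UDP-glycosyltransferases attach sugars to small molecules, and 13 of 55 measured were higher with H2O2 and 3 higher with BA, against 5.16% and 5.5% of all genes. Their median difference was only 0.14 on the log2 scale. The top 3, UGT73B5, UGT73B2 and UGT73B4, belong to 1 subfamily, and UGT73B4 and UGT73B5 lie next to each other, so cross-hybridisation between their features was not checked. UGT73B5 read 9.69 and 8.65 in WT and 8.33 and 8.30 in crf6 with H2O2, and 5.40 and 5.31 in WT and 5.39 and 5.64 in crf6 with BA. All H2O2 arrays were higher, by 3.31 ± 0.26 on the log2 scale (9.93-fold, adjusted p = 7.22e-05, limma), with the first WT array the highest. On the BA side stood UGT72E2, a glucosyltransferase of monolignols, which was 4.74-fold higher with BA (adjusted p = 0.000112, limma).

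Glutathione S-transferases, which couple glutathione to reactive compounds, gave 3 members of 15 measured higher with H2O2 and 1 higher with BA, against 5.16% and 5.5% of all genes. The 1 on the BA side is near its share, and 2 of the 3 on the H2O2 side were lost in fits that left out 1 array. A pair of neighbouring genes of the tau class went opposite ways. GSTU25 was higher with H2O2, at 7.07 ± 0.38 against 4.42 ± 0.50 (SD, n = 4; 6.26-fold, adjusted p = 0.000219, limma). GSTU26 was higher with BA, at 6.32 ± 0.36 against 4.69 ± 0.18 (3.11-fold, adjusted p = 0.000579, limma). Those 2 were GSTF3 and ATGSTF13 (adjusted p = 0.0139 and 0.0173, limma).

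Among antioxidant enzymes, 2 of 6 measured were called, both higher with H2O2, against 5.16% of all genes. ATMDAR2, a monodehydroascorbate reductase, read 10.11 and 9.93 in WT and 9.79 and 9.70 in crf6 with H2O2. With BA it read 7.88 and 8.20 in WT and 8.18 and 8.20 in crf6. The 3.4-fold difference (adjusted p = 6.74e-05, limma) separated the sets, and the untreated arrays, from 8.53 to 8.81, lay between them. GR1, a glutathione reductase, was 2.09-fold higher with H2O2 (adjusted p = 0.00104, limma). GR, the glutathione reductase of chloroplasts, and the ascorbate peroxidases SAPX and TAPX were not called and differed by 0.02 ± 0.12, 0.08 ± 0.13 and -0.06 ± 0.11 on the log2 scale. Of 4 measured genes of the mitochondrial dysfunction response 2 were called higher with H2O2, against the same 5.16%. They were NDB2, an external NAD(P)H dehydrogenase of mitochondria (2.19-fold higher with H2O2), and AT5G51440, counted above.

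Dehydration and cold genes gave 3 called of 6 measured, all higher with H2O2, against 5.16% of all genes. Their differences reached at most 1.28 on the log2 scale. LTI30, a dehydrin, was higher by 0.88 ± 0.17 and KIN2 by 0.81 ± 0.16 on the log2 scale. COR15A, a cold-induced chloroplast protein, was called at 1.28 ± 0.34 (adjusted p = 0.0398, limma), but its arrays overlapped. It read 9.61 and 8.49 in WT with BA but 11.03 and 11.05 in crf6 with BA, and in 7 of the 8 fits that left out 1 array it was no longer called. STZ, a zinc finger repressor of stress genes, was higher with H2O2 at 10.12 ± 0.70 against 7.32 ± 0.64 (SD, n = 4; 6.96-fold, adjusted p = 0.000115, limma). Among 7 WRKY factors measured, WRKY6 was 2.93-fold higher with H2O2 and WRKY29 1.72-fold higher with BA. These counts, 1 each way, were near the shares of 5.16% and 5.5% of all genes, and the median was -0.01. WRKY6 with H2O2 read 11.73 in the first WT array and 10.07 to 10.31 in the others.

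Genes outside these lists also stood high with H2O2. CML41, a calmodulin-like protein, was 11.9-fold higher than with BA, and its untreated arrays, from 5.69 to 6.62, lay above all BA arrays (up to 5.40) and below all H2O2 arrays (from 7.72). BGLU28, a beta-glucosidase, was 10.8-fold higher but varied widely with H2O2, at 6.21 and 7.49 in WT and 6.45 and 9.23 in crf6. ATC, a homologue of the flowering repressor TERMINAL FLOWER 1, differed from the rest. It read 7.24 and 8.34 in WT and 7.27 and 8.29 in crf6 with H2O2, 3.48 and 3.95 in WT and 5.19 and 4.92 in crf6 with BA, and from 6.60 to 7.89 untreated. Its untreated arrays overlapped the H2O2 arrays and lay above the BA arrays while the treatments differed 10.6-fold (adjusted p = 0.000332, limma).

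On the BA side stood genes of the ER body, a compartment derived from the endoplasmic reticulum in Brassicaceae that stores the beta-glucosidase PYK10 and related enzymes, and that is common in roots and seedlings. Of 12 measured members of 23 listed, 9 were higher with BA and 1 higher with H2O2, against 5.5% and 5.16% of all genes, with a median of -1.50 on the log2 scale (H2O2 minus BA). The list was written after BGLU22 had been seen in the ranking, so its count is a description only. NAI1, the transcription factor that ER bodies need, was 3.16-fold higher with BA, with a difference of 1.66 ± 0.19 on the log2 scale toward BA (adjusted p = 0.000539, limma).

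NAI2, the ER body protein that gathers PYK10, read 10.84 and 10.80 in WT and 11.07 and 11.22 in crf6 with BA. With H2O2 it read 8.54 and 8.81 in WT and 9.08 and 8.74 in crf6. Untreated arrays, from 10.04 to 10.47, lay between the 2 sets and touched neither. The difference between the treatments was 2.19 ± 0.13 on the log2 scale, higher with BA (4.58-fold, adjusted p = 1.99e-05, limma).

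The enzymes and lectins of the group followed. PYK10 itself was among the brightest genes and was 2.44-fold higher with BA, at 12.46 ± 0.18 against 11.18 ± 0.12 (SD, n = 4; adjusted p = 0.000267, limma). Its relatives BGLU22 and BGLU21 were 6.06-fold and 3.06-fold higher with BA, and as neighbours of near-identical type they may share signal. The jacalin-related lectins JAL34, JAL31, JAL33 and JAL22, which bind PYK10 or belong to its complex, were higher with BA by 2.34 ± 0.16, 1.68 ± 0.22, 1.38 ± 0.16 and 0.68 ± 0.14 on the log2 scale. JAL23 went the other way, higher with H2O2 by 1.36 ± 0.29. Of the 8 members at least 2-fold higher with BA, 6 (NAI1, NAI2, PYK10, JAL31, JAL33 and JAL34) had untreated arrays between the 2 treatments and apart from both. Among all 244 genes called at least 2-fold higher with BA and with arrays apart, this was so in 34 (13.9%). In bulk seedlings, fewer cells of a type and less RNA per cell cannot be told apart.

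**Figure D2:**
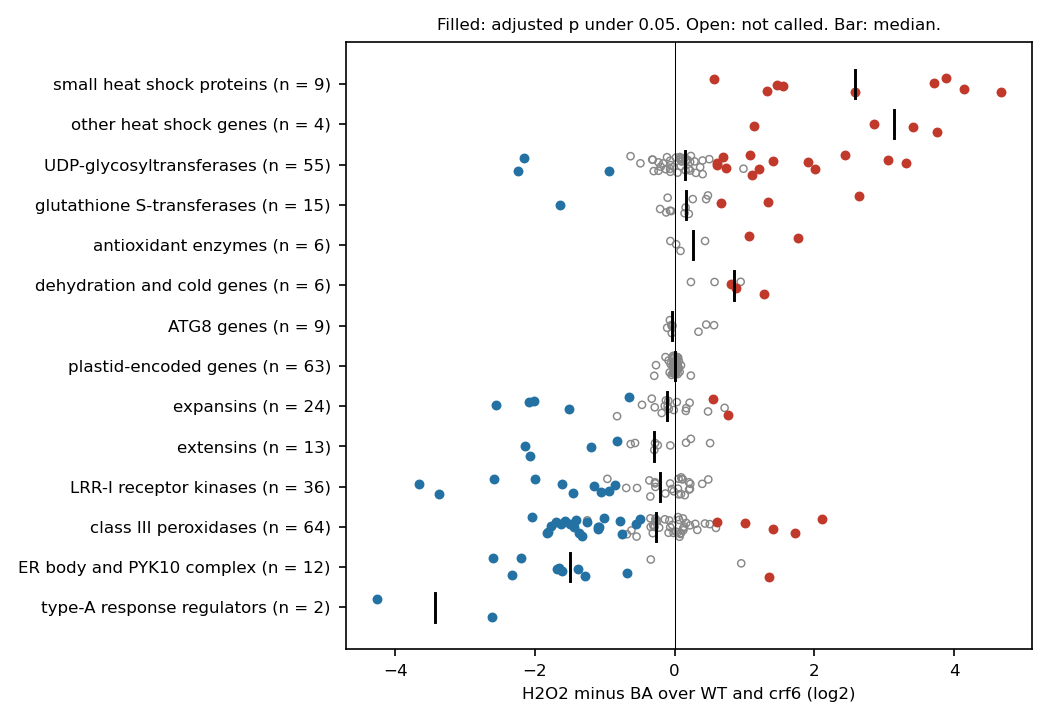
Difference between H2O2 and BA over WT and crf6 (log2, horizontal axis) for the measured members of 14 gene groups, 1 point per gene, with the group's median as a bar. Filled points were called, and all 9 small heat shock proteins lay to the right of 0 while 9 of 12 ER body genes were called to the left.

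Class III peroxidases are secreted enzymes that use H2O2 to cross-link or loosen cell walls. Of 64 measured of 73 listed, 21 were higher with BA and 5 higher with H2O2, with a median of -0.27 (H2O2 minus BA). The shares over all genes were 5.5% and 5.16%, and the count on the H2O2 side was near its share. This list was added after the data were examined, so its counts are a description only. AT4G30170 read 7.20 and 7.74 in WT and 7.64 and 8.25 in crf6 with BA, and 4.84 and 5.72 in WT and 6.12 and 5.97 in crf6 with H2O2. The sets did not overlap (4.14-fold, adjusted p = 0.000469, limma), and the untreated arrays, from 8.09 to 8.57, overlapped the BA arrays. Among the 17 members at least 2-fold higher with BA and with arrays apart, the untreated arrays overlapped the BA arrays and stood apart from the H2O2 arrays in 13. Among all 244 such genes this was so in 96 (39.3%). The 5 on the H2O2 side included Prx37 and its neighbour AT4G08780, at 1.73 ± 0.25 and 2.12 ± 0.24 on the log2 scale, whose untreated arrays overlapped the H2O2 arrays and lay above those with BA.

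LRR-I receptor kinases, membrane kinases with malectin-like and leucine-rich repeat parts outside the cell, gave 10 of 36 measured higher with BA, against 5.5% of all genes. None was higher with H2O2, which is near the 5.16% of all genes in a list of this size. The list was added after the data were examined, so its counts are a description only. AT1G51830 read 7.57 and 7.93 in WT and 7.88 and 7.89 in crf6 with BA. With H2O2 it read 4.46 and 4.53 in WT and 3.63 and 3.99 in crf6. The difference was 3.66 ± 0.19 on the log2 scale (12.7-fold, adjusted p = 1e-05, limma), while the untreated arrays, from 7.98 to 8.58, lay just above those with BA. AT1G51840, AT1G51850 and AT1G51860, by their locus numbers its neighbours, were 10.3-fold, 6.0-fold and 3.07-fold higher with BA. They are close copies, so part of the signal may be shared between their features. Of the 8 members that were at least 2-fold higher with arrays apart, the untreated arrays overlapped the BA arrays in 4 and lay above them in 4. Among all 244 such genes these classes held 96 (39.3%) and 11.

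Cell wall structural and loosening genes are read against the same shares of 5.5% of all genes higher with BA and 5.16% higher with H2O2. Extensins, wall glycoproteins, gave 4 of 13 higher with BA and none higher with H2O2, led by AT1G26250 and AT3G28550 (4.43-fold and 4.19-fold). The extensin list was added after the data were examined, so its counts are a description only. The arrays of AT1G26250 overlapped, since with H2O2 crf6 read 4.09 and 4.55 and with BA the second WT array read 4.40. Untreated levels of both were above the BA mean, at 6.08 and 6.03 against 5.49 and 5.18. Expansins, which loosen walls during growth, gave 5 of 24 higher with BA and 2 higher with H2O2, the latter near its share. Their median of -0.11 turned to 0.01 with each array centred on its median, where 4 and 2 were called.

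EXPB3 led the expansins, at 8.54 and 9.30 in WT and 9.33 and 9.45 in crf6 with BA, against 6.24 and 6.61 in WT and 6.49 and 7.05 in crf6 with H2O2. The sets were apart (5.9-fold, adjusted p = 6.36e-05, limma), and the first WT array with BA was the lowest of its set. EXPA8, EXPA15 and EXPA4 were 4.22-fold, 4.03-fold and 2.85-fold higher with BA. Among xyloglucan enzymes, which cut and rejoin wall glucans, XTH16 was 2.59-fold higher with H2O2 and XTH32 1.93-fold higher with BA, of 10 measured. Both counts, of 1 gene each, were near the shares of 5.16% and 5.5% of all genes.

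The remaining genes with large differences toward BA carry locus codes only in the name tables. AT5G14650 was 13.4-fold higher with BA, with both crf6 BA arrays (9.12 and 9.01) above both WT BA arrays (7.28 and 7.31). AT5G26260 and AT5G26290 were higher with BA by 3.58 ± 0.21 and 3.02 ± 0.16 on the log2 scale, and the untreated arrays of both lay between the treatments. AT4G11190 and AT1G64590 were 10.7-fold and 9.87-fold higher.

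Markers of tissues were hardly measured. The root hair marker EXPA7 was not called (-0.28 ± 0.16 on the log2 scale, H2O2 minus BA), nor was the green tissue marker LHB1B2 (-0.01 ± 0.13). The guard cell lineage factor FMA was higher with BA by 0.58 ± 0.13. They were 1 of 4, 1 of 11 and 1 of 4 listed markers, and no endodermis or phloem marker was measured, so the part of tissue make-up in these results was not tested. The 63 measured plastid-encoded genes gave no call in either direction, where 10.7% of all genes were called. They ran from -0.29 to 0.23 on the log2 scale, and their list was added after the data were examined. The 9 ATG8 genes of autophagy also gave none, which is near that share in a list of this size. ATG8H was the highest at 0.56 ± 0.25, and 1 ATG8 gene was called with each array centred on its median.

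Untreated levels divided the called genes into kinds. Called and at least 2-fold different were 358 genes higher with H2O2 (2.16% of all genes) and 258 higher with BA (1.56%). Of these, 334 and 244 were also apart between the treatments. In 230 of the 334 (68.9%) the untreated arrays overlapped the BA arrays and stood apart from the H2O2 arrays, and in 19 (5.69%) they overlapped the H2O2 arrays and stood apart from the BA arrays. On the BA side the same classes held 96 (39.3%) and 66 (27%) of 244. ARR15, RR16, UGT76C2, EXPB3 and EXPA15 were in the latter. Overlap by a single array was enough for a class. The untreated mean of EXPB3 was 7.52, against 6.60 with H2O2 and 9.16 with BA. For UGT76C2 it was 5.43, against 4.77 and 6.92, and for EXPA15 5.12, against 4.46 and 6.47. Untreated ARR15 and RR16 were nearer to H2O2, at 3.34 against 2.91 and 7.18, and 2.92 against 2.80 and 5.40. In 33 genes higher with H2O2 and 34 higher with BA, the untreated arrays lay between the treatments and touched neither. This was so for 0.399% and 0.338% of all genes whether called or not. Those shares are over all genes, apart between the treatments or not, so they are not set against the 334 and 244. In 51 of the 334 and 37 of the 244 the untreated arrays overlapped both treatments. In 1 and 11 they lay beyond the BA arrays, away from the H2O2 arrays. The other classes were not counted over all genes. No test was made on the untreated arrays, and a class rests on 4 arrays of each kind.

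The comparison was also made within each genotype. Within WT 620 genes were called (3.75%), 364 higher with H2O2 (2.2%) and 256 higher with BA (1.55%). Within crf6 403 were called (2.44%), 190 higher with H2O2 (1.15%) and 213 higher with BA (1.29%), each from 2 arrays against 2. Centring on array medians split the WT calls 473 to 164. The count for WT was 352 and 954 without its first or second H2O2 array and 339 and 145 without its first or second BA array. That for crf6 was 131 and 157 without its first or second H2O2 array and 125 and 96 without its first or second BA array. No gene differed between the genotypes in this comparison at an adjusted p under 0.05 (limma interaction), and 518 genes (3.13%) had an unadjusted p under 0.05. The test had little reach with 2 arrays a group. An interaction of -1.64 ± 0.27 on the log2 scale for AT1G07400 and one of -1.80 ± 0.38 for AT5G54165 both had an adjusted p of 1 (limma), so the lack of calls does not show that the genotypes responded alike. AT2G29500 differed by 5.28 ± 0.22 in WT and 4.06 ± 0.22 in crf6 and AT1G07400 by 4.53 ± 0.19 and 2.89 ± 0.19. ARR15 differed by -4.19 ± 0.21 in WT and -4.34 ± 0.21 in crf6.

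**Figure D3:**
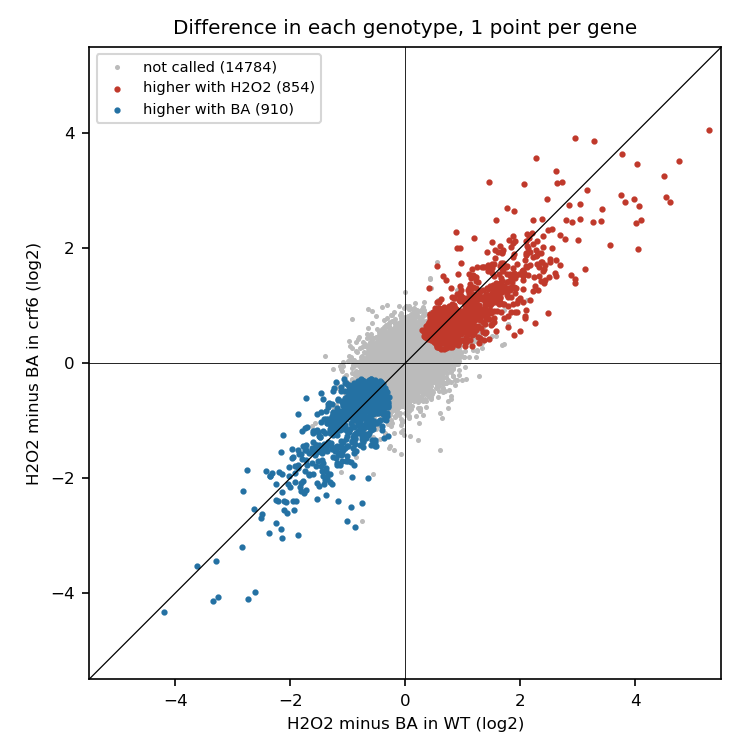
Difference between H2O2 and BA in WT (horizontal) and in crf6 (vertical), log2, 1 point per gene for 16548 genes, with the line of equal values drawn. The 854 genes called higher with H2O2 and the 910 called higher with BA lay in the upper right and lower left, as the joint fit of both genotypes selects for.

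The line named CRF6oe gave the same comparison on 4 arrays that the fit above did not use, 2 with H2O2 and 2 with BA. These arrays stood apart from the 8, with correlations of 0.917 to 0.947 over genes, where H2O2 and BA arrays of WT and crf6 correlated at 0.948 to 0.976. In CRF6oe 905 genes were called (5.47%), 496 higher with H2O2 (3%) and 409 higher with BA (2.47%). Quantile normalization split these calls 553 to 240, and centring on array medians split them 897 to 232. The count was 220 without its first H2O2 array, 274 without its first BA array and 492 without its second BA array, and 76 when only its own 4 arrays were fitted.

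Of the 854 genes higher with H2O2 in WT and crf6, 521 (61%) had the same sign in CRF6oe. There 87 were called in the same direction and 10 in the opposite one. Of the 910 higher with BA, 710 (78%) had the same sign, 129 were called in the same direction and 8 in the opposite one. Those 87 genes were 10.2% of their list and 17.5% of the CRF6oe list, and those 129 were 14.2% and 31.5%. Over all genes, 52.9% were positive in CRF6oe. The median difference of the 854 was 0.87 on the log2 scale in WT and crf6 and 0.13 in CRF6oe, and that of the 910 was -0.75 and -0.33. The genes were selected for their size in the first pair of genotypes.

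Heat shock and cytokinin genes were called in CRF6oe in the same direction. All 9 small heat shock proteins and all 4 other heat shock genes were again called higher with H2O2. Their medians were 3.11 and 2.33 on the log2 scale, against 2.58 and 3.14 over WT and crf6. The difference was smaller in CRF6oe by a called interaction for AT2G29500 (-1.56), AT5G51440 (-1.28) and Fes1A (-1.19). For each of them the CRF6oe arrays with BA lay above those of WT and crf6 with BA. AT2G29500 read 6.57 and 5.99 there, against 4.15 to 4.68, and Fes1A 5.65 and 5.58, against 4.41 to 4.95. With H2O2 they read 9.44 and 9.34, and 7.91 and 7.79, within the range of WT and crf6. Untreated AT2G29500 read 6.43 and 5.67 in CRF6oe, so it was high there without BA too, against 4.03 to 4.79 in WT and crf6. Untreated Fes1A read 5.28 and 5.05 in CRF6oe, against 4.54 to 5.07. Untreated AT5G51440 read 3.91 and 4.24, against 3.72 to 4.25. The calls of single genes in CRF6oe were not repeated under the alternatives. ARR15 and RR16 were again called higher with BA, RR16 at 7.36 and 6.89 with BA against 2.97 and 2.41 with H2O2, and so was UGT76C2. Of the 12 ER body genes, 7 were again called higher with BA. Of 64 class III peroxidases 5 were called higher with BA and none higher with H2O2, against 2.47% and 3% of all genes in CRF6oe. The counts of UDP-glycosyltransferases (2 of 55 higher with H2O2 and 1 higher with BA) and LRR-I kinases (1 of 36 and 2) were near those shares. These counts come from 2 arrays against 2 and are not comparable with those from 4 against 4.

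The difference itself was tested as an interaction over all 18 arrays. It was called for 432 genes (2.61%), in 204 (1.23%) with a more positive and in 228 (1.38%) with a more negative H2O2 minus BA value in CRF6oe. An unadjusted p under 0.05 was reached by 20.2% of genes. Without the first CRF6oe H2O2 array only 39 were called, without the first CRF6oe BA array 103, without the second crf6 BA array 153 and without the second WT BA array 185. Leaving out the first crf6 BA array gave 224 and the first crf6 H2O2 array 257. Of the 854 genes higher with H2O2, 157 had a called interaction toward a lower value in CRF6oe and 1 toward a higher one. Of the 910 higher with BA, 79 had one toward a higher value and 5 toward a lower one. The 854 and 910 were chosen on the same 8 arrays that enter the interaction with the opposite sign, which favours these directions, so nothing is read from the imbalance.

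CML41 had the most negative interaction, at -4.65 ± 0.92 on the log2 scale (adjusted p = 0.0199, limma). In CRF6oe it read 5.74 and 8.05 with H2O2 and 9.08 and 6.86 with BA, so those arrays overlapped. AT5G24200, AT3G47480, AT1G57630 and AT1G72900 followed, at -4.54 to -3.26. In the other direction, EXPB3 was flat in CRF6oe, at 5.13 and 5.04 with H2O2 and 5.37 and 4.73 with BA, for an interaction of 2.60 ± 0.37 (adjusted p = 0.00495, limma). AT5G05220 read 5.77 and 5.49 with H2O2 against 2.48 and 2.52 with BA in CRF6oe, and from 2.19 to 2.88 on the 8 arrays of WT and crf6, for an interaction of 2.95 ± 0.28 (adjusted p = 0.000544, limma). RR16 differed more in CRF6oe than in WT and crf6, with an interaction of -1.83 ± 0.36 (adjusted p = 0.02, limma), while that of ARR15 was not called (0.38 ± 0.43).

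**Figure D4:**
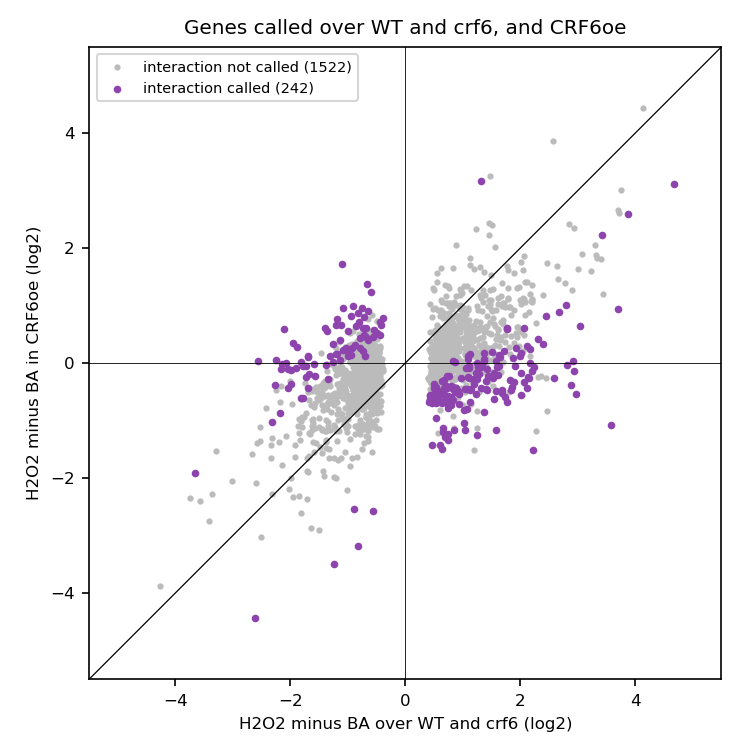
Difference between H2O2 and BA in CRF6oe (vertical, log2) against that over WT and crf6 (horizontal, log2) for the 1764 genes called in the latter, with the line of equal values drawn. The 242 genes whose difference in CRF6oe differed by the interaction test are marked, and the choice of genes on the horizontal axis favours points nearer to 0 on the vertical axis.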

How the data were processed

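RNA of whole seedlings was labelled with biotin and hybridised to one-colour arrays, per the labels' protocols. The deposited table holds 1 value per feature and array. The range of the deposited values is that of log2 levels, as no label states the scale. How the authors corrected background, normalized and summarised the arrays is not given in those labels. Values were used as deposited. The 8 arrays' medians ran from 4.63 to 4.89, lower with H2O2 (up to 4.79) than with BA (from 4.83). The first WT array with H2O2 correlated least with the other 7 arrays (mean r = 0.964), and without it 9 small heat shock genes were called higher with H2O2 and 9 ER body genes higher with BA. Precision is limited by how few arrays there are.

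Gene names came from the probe table of the platform, updated with RefSeq's TAIR10.1 gene table. The array has 38408 features. Analysis kept the 16722 with a single gene and left out 759 with more than 1 and 20927 without an entry. The feature with the highest mean stood for each gene, which left 16548 genes.

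The main fit used limma 3.58.1 in R 4.3.3 on the 8 arrays, with treatment and genotype as terms (5 residual degrees of freedom, 4.71 prior degrees of freedom, median SE 0.147), two-sided. A fit of the 4 group means gave WT, crf6 and their interaction, and a fit of the 9 group means on 18 arrays gave CRF6oe and its interaction. On simulated data with 200 changed features the main fit called 16% of those set to a log2 difference of 0.5, 92% at 1, and 100% at 2 and at 3. The simulation changed a smaller share of features than was called in the data. Its noise was independent between arrays, with no genotype or whole-array effect. The percentages are thus not the power of the fit on these arrays. Genes named are the 12 largest differences in each direction among called genes with arrays apart, up to 4 called members of each list, all measured cytokinin genes, and 5 of each sign for a called interaction. The other genes named were chosen after their values were seen. Members, lists and rules were chosen with earlier results of these data known, and the lists of peroxidases, extensins, LRR-I kinases, ER body genes and plastid-encoded genes were added after the data were examined. Lists are described by counts and medians, with no set test. Alternatives covered scaling, dim features, features tested, prior variance, blocks, samples in the fit and single arrays left out.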

Additional observations from a re-analysis of the deposited data

Results flagged for a closer look

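In 13 of 142 sets of 4 arrays tested, for the named genes, 1 array stood apart from the other 3 by Dixon's criterion, which chance does in about 1 of 20 sets. The low or high array was the first WT array with BA in 6 of them, at 7.57 for AT1G51830, 7.15 for AT5G23830, 7.88 for ATMDAR2, 8.54 for EXPB3, 5.63 for EXPA15 and 6.2 for AT1G72900. It was the first WT array with H2O2 for RR16 (2.27), WRKY6 (11.73), AT5G64100 (5.9) and AT3G28550 (1.94). The second WT array with H2O2 stood apart for XTH16 (6.67), the first crf6 array with H2O2 for GSTU25 (6.51) and the second for AT1G64590 (4.64).

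The difference between H2O2 and BA was itself different in CRF6oe from that in WT and crf6 for 432 genes by the interaction in limma. Of genes higher with H2O2 in WT and crf6, the interaction was -1.56 for AT2G29500, -1.28 for AT5G51440, -2.76 for AT4G01870, -4.65 for CML41, -1.19 for Fes1A, -1.16 for ATMDAR2, -2.4 for UGT73B2, -1.63 for UGT73B4, -1.79 for STZ, -3.74 for AT3G47480, -3.51 for AT1G57630 and -3.26 for AT1G72900. Of genes higher with BA, it was 1.75 for AT1G51830, 2.3 for UGT72E2, 2.6 for EXPB3, 2.08 for EXPA8, 1.95 for AT4G30170, 1.21 for AT2G37130, 1.84 for AT5G64100, 2.12 for AT1G26250, 1.87 for AT2G28960, 2.7 for AT3G01260 and 2.82 for AT5G43520. These were smaller in CRF6oe or turned there, while RR16 (-1.83) and AT3G54580 (-2.35) were larger toward BA in CRF6oe. AT5G24200 (-4.54), AT5G05220 (2.95) and AT1G34910 (3.25) were not called in WT and crf6. The CRF6oe arrays stand apart as a set, and the part of that in these differences was not tested.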

How the results depend on the processing

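For the 8 arrays the count of 1764 called genes stayed within 1.5 times of itself under every alternative other than leaving out 1 array, where it ran from 1061 to 1762. The split between H2O2 and BA moved with scaling, to 928 and 776 after quantile normalization and to 1225 and 609 after centring on array medians. For WT the count of 620 was 191 in a fit of its own 4 arrays, 258 with all features tested, and 145 to 954 with 1 array left out. For crf6 the count of 403 was 159 with all features tested and 96 to 157 with 1 array left out. For CRF6oe the count of 905 was 76 in a fit of its own 4 arrays and 220 to 970 with 1 array left out. For the CRF6oe interaction the count of 432 was 199 with all features tested and 39 to 557 with 1 array left out. With all features tested, more features shared the adjustment. Single genes were repeated for the 71 that the naming rule chose, and not for the other genes in the text. Of the 67 called among them, 63 kept their call and sign under every alternative, and COR15A, GSTF3, ATGSTF13 and AT5G43520 did not. None of the 71 reversed. Same-numbered arrays did not deviate together in every genotype (r = 0.22 in WT, 0.04 in crf6 and -0.15 in CRF6oe), so the numbers were not taken to pair arrays. A replicate block moved the counts to 2028 for the 8 arrays, 772 for WT, 507 for crf6, 992 for CRF6oe, 577 for the CRF6oe interaction and 0 for the crf6 interaction.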
